A study of Homo sapiens with 23 samples.

Results

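The tumor necrosis factor (TNF) family of B-cells was examined in polysomal RNA of 2 diffuse large B-cell lymphoma (DLBCL) lines treated with an mTOR inhibitor or with ethanol. It was represented by 10 genes of the 10546 named genes tested. The ligands were LTB and LTA (lymphotoxin beta and alpha), TNF and CD70. The receptors were CD27, CD40, TNFRSF13B (TACI), TNFRSF13C (the BAFF receptor), TNFRSF17 (BCMA) and FAS. The genes were chosen by name and matched by symbol to their array probes, and all 12 probes with these symbols passed the detection filter, those of TNFRSF13B and FAS only through SUDHL-2 groups. LTB and CD40 had 2 probes each, and the other 8 genes had 1.

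The lines were SUDHL-2, of the activated B-cell type, and SUDHL-4, of the germinal center B-cell type, each a single established line. INK128, an ATP-competitive mTOR kinase inhibitor, was given at 40 nM for 24 h, and its control was DMSO at 0.01%. EtOH was given at 20 mM for 48 h in sealed flasks, and its control was water. The sources do not say whether the control flasks were sealed. Agent, vehicle and exposure time therefore cannot be told apart between the experiments. RNA of gradient fractions 9 to 11, which carry translating ribosomes, was pooled and hybridised to Illumina HumanHT-12 arrays. The 8 groups were SUDHL-2 with INK128, DMSO, EtOH and water, and SUDHL-4 with the same 4 conditions. Each group had 3 arrays, except SUDHL-2 with EtOH, which had 2, giving 23 arrays. The study describes independent replicates. Total RNA was not on the arrays, so a polysomal level does not separate the amount of an mRNA from the share of it on ribosomes. Equal RNA mass was labelled, and fewer cells and less RNA per cell cannot be told apart.

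TNF family ligands are mostly trimers, many of them held at the cell surface. They gather receptor chains that recruit TRAF adaptor proteins, which lead to NF-kB and kinase signaling, or, for receptors with a death domain such as FAS, to caspases. In the B lineage, CD40 receives T-cell help, CD27 and its ligand CD70 act in activation and memory, and the BAFF and APRIL receptors TNFRSF13B, TNFRSF13C and TNFRSF17 sustain survival at successive stages. Lymphotoxin alpha is secreted as a homotrimer, or is held at the membrane by lymphotoxin beta as a heterotrimer that binds the lymphotoxin beta receptor. LTA, TNF and LTB are consecutive protein-coding genes on chromosome 6, between NFKBIL1 and LST1. CD27 lies on chromosome 12 between LTBR, the lymphotoxin beta receptor, and TAPBPL, and CD70 lies on chromosome 19 between the ligand genes TNFSF9 and TNFSF14.

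Upstream sequences are shown for the 4 genes on which the INK128 results below turn, the 3 neighbours on chromosome 6 and CD27. Each is the 250 bases before the annotated start in RefSeq (build GRCh38.p14), written 5′ to 3′ on the strand of the gene. The table used held promoters of 6 of the 10 genes. Capitals mark matches to the consensus of the NF-kB site (kappaB) or to the FOXO motif TGTTTAC, both searched on both strands, and the matches do not overlap.
LTB, chr6:31582426-31582675, minus strand: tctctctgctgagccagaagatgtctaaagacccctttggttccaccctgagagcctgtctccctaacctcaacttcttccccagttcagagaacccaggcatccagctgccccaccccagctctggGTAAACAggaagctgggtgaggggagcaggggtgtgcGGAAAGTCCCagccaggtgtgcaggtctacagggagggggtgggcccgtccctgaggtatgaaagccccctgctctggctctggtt
LTA, chr6:31571849-31572098, plus strand: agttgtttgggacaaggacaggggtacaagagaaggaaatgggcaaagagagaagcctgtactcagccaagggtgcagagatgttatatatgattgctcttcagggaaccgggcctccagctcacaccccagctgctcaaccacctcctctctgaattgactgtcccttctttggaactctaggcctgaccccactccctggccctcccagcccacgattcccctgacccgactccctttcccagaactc
TNF, chr6:31575315-31575564, plus strand: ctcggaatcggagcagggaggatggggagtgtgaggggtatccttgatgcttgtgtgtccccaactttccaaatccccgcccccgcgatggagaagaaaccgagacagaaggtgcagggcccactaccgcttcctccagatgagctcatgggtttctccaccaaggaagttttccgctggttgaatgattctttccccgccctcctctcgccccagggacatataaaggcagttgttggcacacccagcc
CD27, chr12:6443642-6443891, plus strand: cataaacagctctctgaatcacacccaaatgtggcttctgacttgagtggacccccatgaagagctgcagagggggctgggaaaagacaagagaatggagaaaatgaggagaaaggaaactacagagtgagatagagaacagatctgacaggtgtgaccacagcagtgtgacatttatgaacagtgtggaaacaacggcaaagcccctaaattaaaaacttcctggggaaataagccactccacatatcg
The LTB window held 1 kappaB match, at 86 to 77 bases before the start, and 1 FOXO match, at 123 to 117 bases before it, both on the strand opposite to the gene. Neither motif was found in the windows shown for LTA, TNF and CD27, while the window of a second annotated LTA start, not shown, held overlapping kappaB matches between 104 and 94 bases before it. Of 35116 promoter windows of this length, 9.96% held a kappaB match and 2.98% a FOXO match. A match is a description of letters and not a measured binding site.

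Each probe has a deposited signal, a linear fluorescence intensity, and a detection p-value against the negative controls of its array. A probe was taken as above background, or detected, at a detection p of at most 0.02. For comparison the signals were brought to log2, floored on each array at its lowest detected signal and scaled to equal mean and spread on every array. This is called the normalised log2 level below. A difference of 1 is a 2-fold difference, and levels of different genes are not compared, since probes differ in brightness. Differences were tested with the moderated test of limma over 14636 entries, with Benjamini-Hochberg adjustment, and SE is the standard error of that test. Genes with an adjusted p under 0.05 were called. Between 14699 and 17098 probes were detected per array. The SUDHL-2 DMSO replicate 1, SUDHL-2 water replicate 2 and SUDHL-4 INK128 replicate 3 arrays had the highest median signals over the probes kept (326, 276 and 240, beside 142 to 214 on the others). Markers for T-cells (CD3D, CD3E, CD4 and CD8A), NK cells (GNLY, KLRD1 and NCR1) and myeloid cells (CSF1R, ITGAM, S100A8 and S100A9) were detected on 0 arrays. The other markers of these lists were dim, with CD2 detected on 21 arrays, CD3G and CD28 on 1 each, NKG7 on 9, PRF1 on 7, LYZ on 18, CD14 on 10 and FCGR3A on 3. Of 7 B-cell markers with a probe, 6 were detected on all arrays, and PAX5 on 0.

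**Figure D1:**
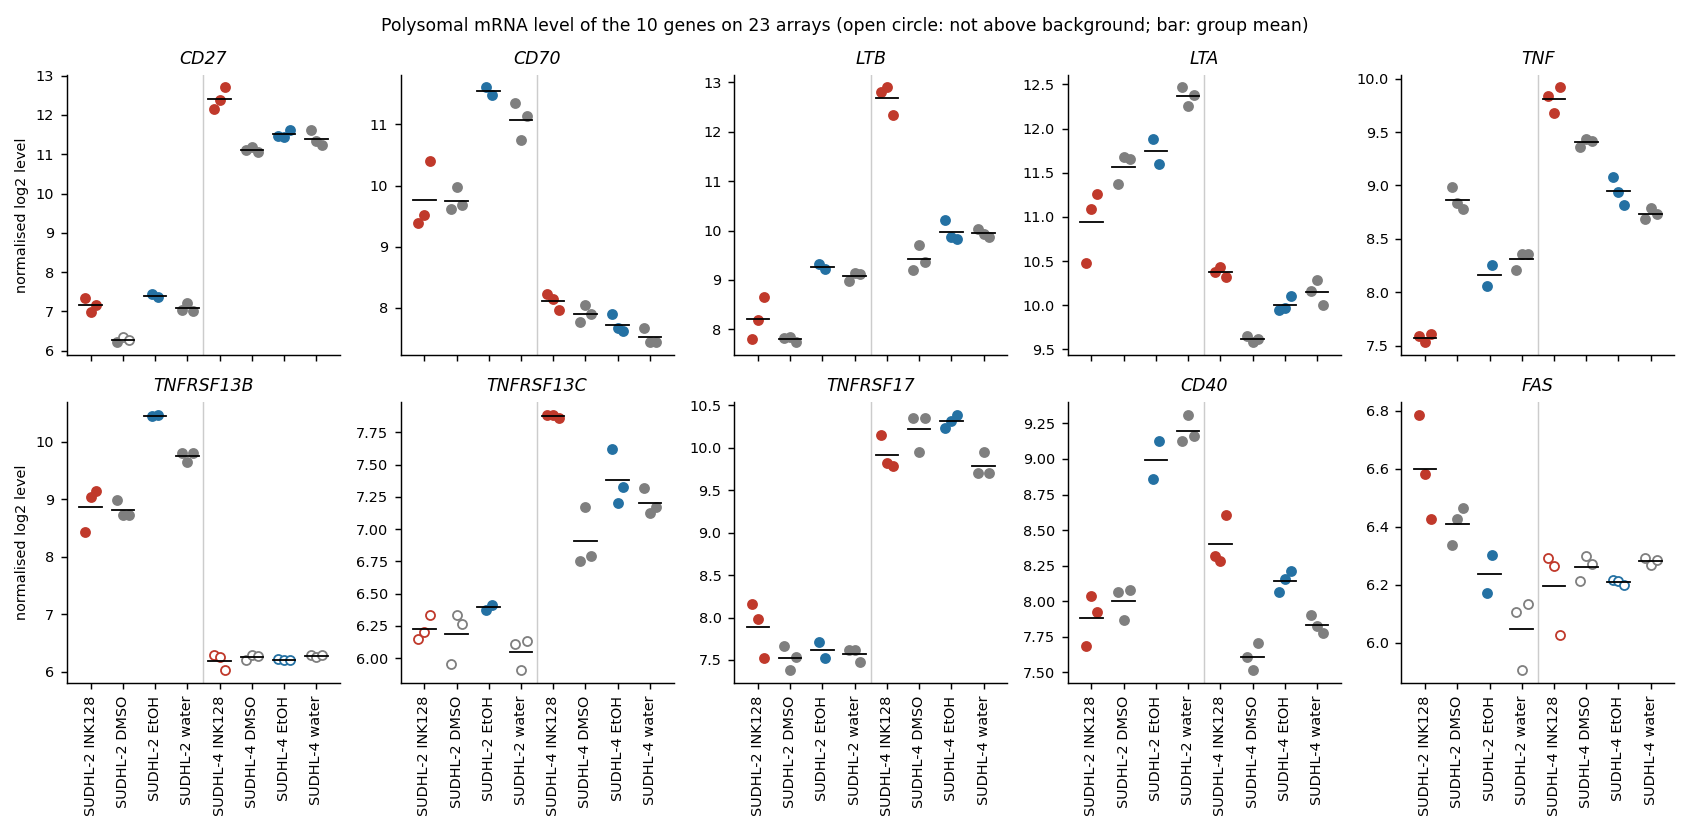
Normalised log2 level (y axis, a separate range for each gene) of the 10 genes on each of 23 arrays, by line and treatment (x axis), where a point is 1 array, the bar is the group mean and an open circle is a gene not above background. LTB with INK128 in SUDHL-4 lies between 12.33 and 12.90, above every other group, and TNF with INK128 in SUDHL-2 lies between 7.53 and 7.61, below every other group.

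In SUDHL-4, polysomal LTB rose with INK128 more than any other of the 10 genes. The normalised levels of LTB were 12.82, 12.90 and 12.33 with INK128, and 9.20, 9.71 and 9.37 with DMSO, so the groups lay far apart. The difference was 3.26 on the log2 scale (SE 0.21, 95% interval 2.80 to 3.72, adjusted p = 5.26e-06, limma), or 9.56-fold. Both probes of LTB moved. The deposited signals of probe ILMN_2376205 were 8128, 10184 and 12235 with INK128, and 1283, 1626 and 1426 with DMSO. Those of probe ILMN_2376204 were 2936, 2930 and 3155 with INK128, and 296, 405 and 307 with DMSO. Fitted apart, the first of these probes rose by 3.09 (SE 0.23, adjusted p = 1.07e-05), and the other by 3.42 (SE 0.22, adjusted p = 7.17e-06).

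CD27, the receptor of CD70 and a marker of memory B-cells, rose as well. Its deposited signals in SUDHL-4 were 3222, 3893 and 8062 with INK128, and 2273, 2202 and 2099 with DMSO. Scaled to the array, its levels were 12.16, 12.37 and 12.71 with INK128, and 11.11, 11.19 and 11.06 with DMSO. INK128 replicate 3 had the highest CD27 signal and level of its group. The median signal over the probes kept was 240 on its array, beside 166 and 170 on the other SUDHL-4 INK128 arrays. Without replicate 3 the difference was 1.15 (adjusted p = 0.000368). With all arrays it was 1.29 (SE 0.14, 95% interval 0.99 to 1.60, adjusted p = 0.00011), or 2.45-fold.

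A further 4 of the 10 genes rose in SUDHL-4 with INK128, which made 6 of 10 called higher and 0 lower. Over all entries 15.4% were called in this comparison, 8.27% higher and 7.17% lower (1210 and 1050 entries, beside 642 and 1219 with median centring). The median difference was 0.58 over the 10 genes and -0.06 over all entries. TNFRSF13C, the receptor through which BAFF keeps mature B-cells alive, had levels of 7.88, 7.88 and 7.86 with INK128, and 6.75, 7.17 and 6.79 with DMSO. It rose by 0.97 (SE 0.14, adjusted p = 0.000589, 1.96-fold). CD40 rose by 0.79 (SE 0.13, adjusted p = 0.00165, 1.73-fold), with levels of 8.31, 8.28 and 8.61 with INK128, and 7.61, 7.51 and 7.70 with DMSO. Its probes ILMN_1779257 and ILMN_2367818 rose by 0.93 (adjusted p = 0.00218) and 0.66 (adjusted p = 0.0416) when fitted apart. LTA rose by 0.76 (SE 0.17, adjusted p = 0.0105, 1.69-fold), with levels of 10.38, 10.44 and 10.32 with INK128, and 9.65, 9.58 and 9.62 with DMSO. In these genes every INK128 array was above every DMSO array. LTB, CD27, TNFRSF13C, CD40 and LTA stayed called under every alternative that tested them and without each array in turn.

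TNF, the neighbour of LTA and LTB, changed less in SUDHL-4. Its levels were 9.83, 9.68 and 9.92 with INK128, and 9.36, 9.44 and 9.42 with DMSO, a difference of 0.41 (SE 0.11, adjusted p = 0.0204, 1.33-fold). The groups did not overlap. The call was lost with median centring (0.28, adjusted p = 0.257), with normexp background correction (adjusted p = 0.0628), in the trend and robust form of the test (adjusted p = 0.067) and without any single array other than INK128 replicate 2 (0.35 to 0.42, adjusted p of 0.0554 to 0.0801). At the methods' thresholds it was lost as well. CD70, with a difference of 0.21 (95% interval -0.27 to 0.69, adjusted p = 0.681), and TNFRSF17, with -0.30 (95% interval -0.68 to 0.08, adjusted p = 0.328), were not called. TNFRSF13B and FAS were not above background on any SUDHL-4 array.

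**Figure D2:**
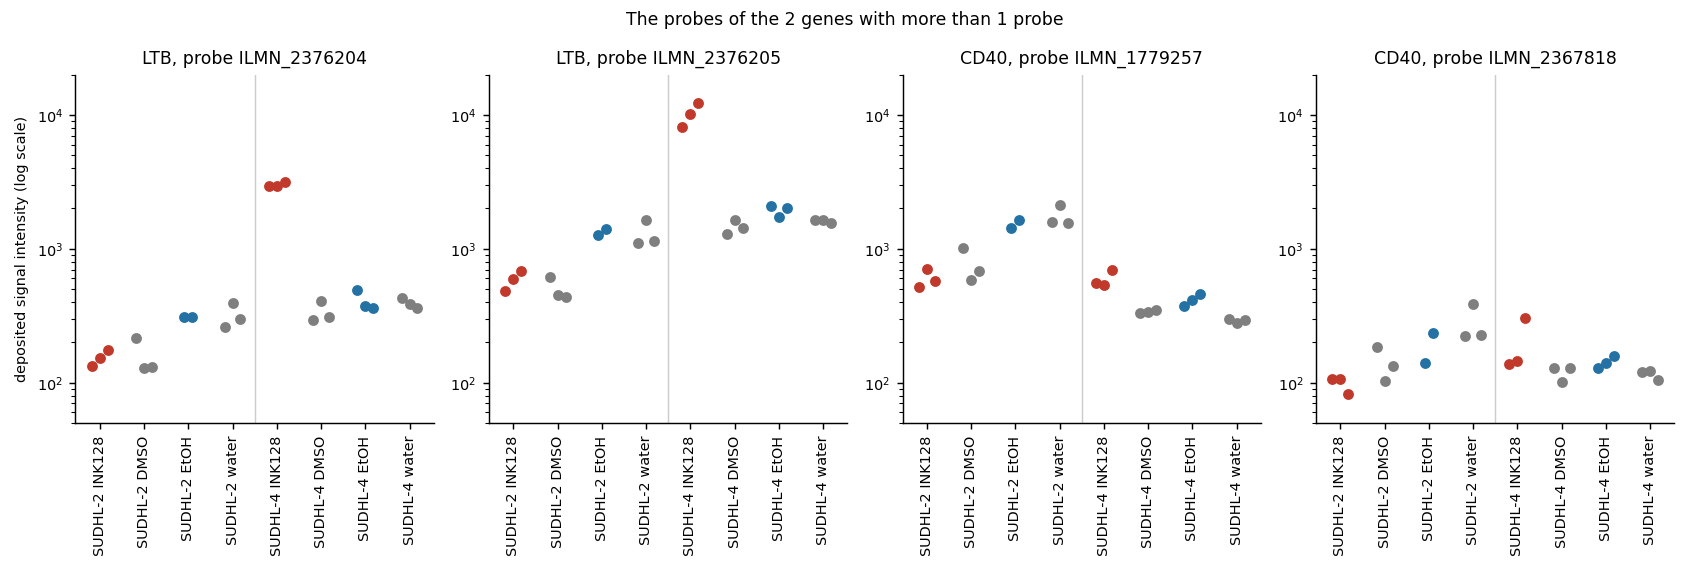
Deposited signal intensity (y axis, log scale) of the probes of LTB and CD40, the 2 genes with more than 1 probe, by line and treatment (x axis), where a point is 1 array. Both LTB probes stand apart with INK128 in SUDHL-4, at 2930 to 3155 and 8128 to 12235, and the CD40 probes range from 277 to 2131 and from 82 to 389.

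Of 6 B-cell markers tested in SUDHL-4, 4 were called higher with INK128 and 0 lower, where 8.27% of all entries were called higher. They were BLK (0.78), CD37 (1.42), CD79A (0.68) and CD79B (1.02), the last pair being the signaling chains of the B-cell receptor. The summed deposited signal of the B-cell markers was 37730 to 48740 with INK128, and 30160 to 32160 with DMSO. Such sums are not scaled between arrays, and they include INK128 replicate 3, one of the arrays with the highest median signals. The part of the B-cell markers in the results for LTB, CD27, TNFRSF13C, CD40 and LTA was not tested. The summed signals of the other cell type lists were low. They were 416 to 429 with INK128 and 435 to 448 with DMSO for 7 T-cell markers, 293 to 296 with INK128 and 299 to 319 with DMSO for 5 NK-cell markers, and 463 to 488 with INK128 and 493 to 518 with DMSO for 7 myeloid markers.

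In SUDHL-2 TNF fell and CD27 rose with INK128. TNF had deposited signals of 219, 193 and 177 with INK128, and 867, 468 and 489 with DMSO. Its normalised levels were 7.59, 7.53 and 7.61 with INK128, and 8.99, 8.84 and 8.78 with DMSO. It fell by 1.29 on the log2 scale (SE 0.11, 95% interval -1.52 to -1.06, adjusted p = 8.69e-05), which was 2.45-fold lower with INK128, and stayed called under every alternative run and without each array in turn. CD27 signals were 182, 134 and 134 with INK128, and 110, 76 and 80 with DMSO, where only 1 of 3 arrays was above background. On the normalised scale it rose by 0.90 (SE 0.14, 95% interval 0.59 to 1.20, adjusted p = 0.00687), or 1.86-fold over DMSO values that mostly stand at the floor. Fitted on SUDHL-2 arrays alone its call was lost (adjusted p = 0.0817).

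The other genes were not called in SUDHL-2 with INK128, so 1 of 10 was higher and 1 lower, where 3.62% of all entries were called. The median difference of the 10 genes was 0.05, beside 0.03 over all entries. LTA came nearest, with levels of 10.48, 11.09 and 11.27 with INK128, and 11.37, 11.67 and 11.66 with DMSO. The groups did not overlap, and the difference of -0.62 (SE 0.17) missed the threshold (adjusted p = 0.069). It was called with median centring (-0.74, adjusted p = 0.0251), with all arrays in 1 fit (adjusted p = 0.0102) and without INK128 replicate 3 (-0.78, adjusted p = 0.0324). LTA was also called with the replicate blocks and at the methods' thresholds. LTB had 7.80, 8.18 and 8.66 with INK128, and 7.82, 7.85 and 7.73 with DMSO, and the groups overlapped (0.42, 95% interval -0.04 to 0.88, adjusted p = 0.34). TNFRSF17 (0.36, adjusted p = 0.314), FAS (0.19, adjusted p = 0.476), CD40 (-0.12, adjusted p = 0.78), TNFRSF13B (0.05, adjusted p = 0.929) and CD70 (0.01, adjusted p = 0.984) were not called. TNFRSF13C was not above background in either group. The summed B-cell marker signal was 3313 to 6166 with INK128, and 2968 to 7933 with DMSO. Of its genes BLK, a B-cell kinase, rose by 0.60 (adjusted p = 0.015), a call lost with median centring, with 1 line alone and without 2 of the 6 arrays in turn, and its part in the results was not tested.

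**Figure D3:**
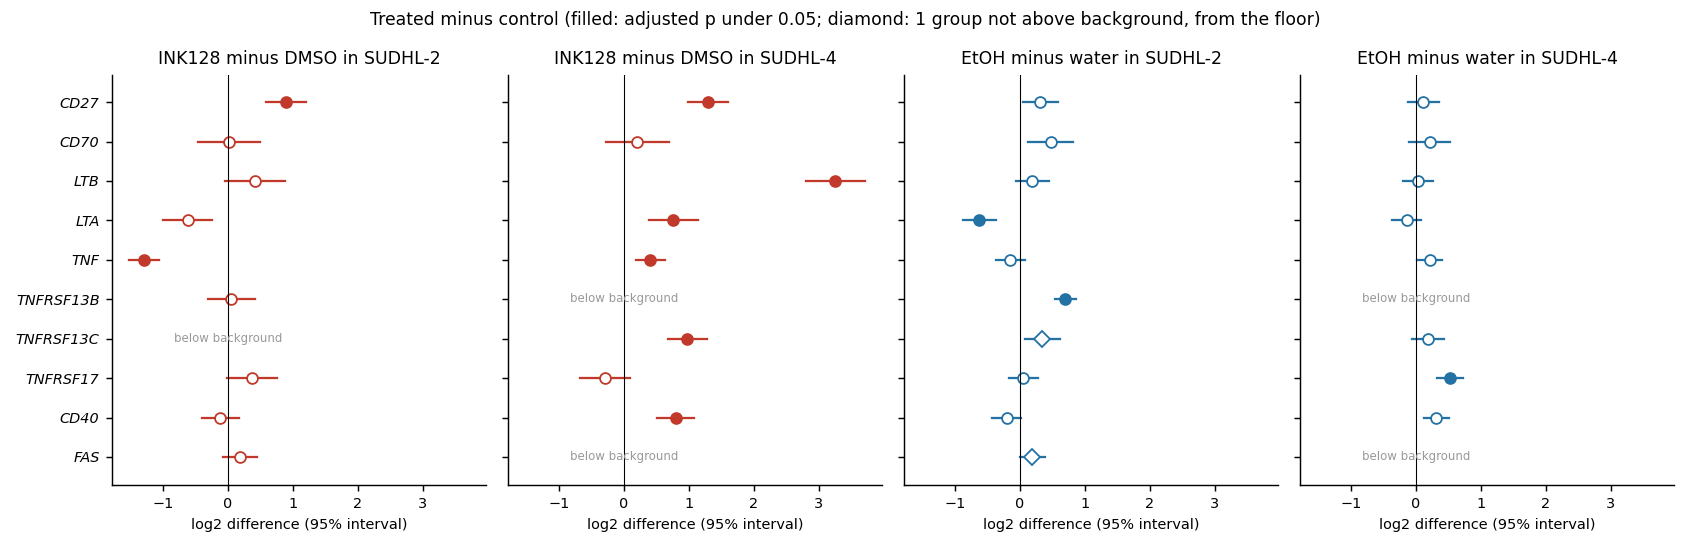
Log2 difference of treated minus control arrays (x axis) for the 10 genes (rows) in the 4 treatment comparisons, where a line is the 95% interval, a filled mark an adjusted p under 0.05 and a diamond a difference from the floor, with 1 group not above background. LTB at 3.26 and CD27 at 1.29 stand to the right with INK128 in SUDHL-4, TNF at -1.29 stands to the left in SUDHL-2, and with EtOH no difference is beyond 0.70.

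The response to INK128 was then compared between the lines, as the SUDHL-2 difference minus the SUDHL-4 difference. LTB (-2.84, SE 0.30, adjusted p = 0.00067), TNF (-1.70, SE 0.15, adjusted p = 0.000202), LTA (-1.38, SE 0.24, adjusted p = 0.0113) and CD40 (-0.91, SE 0.19, adjusted p = 0.0187) responded lower in SUDHL-2 than in SUDHL-4. The CD40 call was lost with median centring (-0.82, adjusted p = 0.0594), without SUDHL-2 DMSO replicate 3 (-0.87, adjusted p = 0.0583) and without SUDHL-4 DMSO replicate 2 (-0.86, adjusted p = 0.059). TNF was called in opposite directions in the lines, while LTA was called higher in SUDHL-4 and had -0.62 in SUDHL-2, which was not called. TNFRSF13C was called too (-0.93), but its SUDHL-2 values were below background in both groups, so no response was measured there. Thus 5 of 10 genes were called, where 4.32% of all entries were. CD27 rose in both lines, and its responses differed by -0.40 (95% interval -0.83 to 0.04, adjusted p = 0.318). No line difference was called for TNFRSF17 (0.66, adjusted p = 0.169) or CD70 (-0.19, adjusted p = 0.776).

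With EtOH in SUDHL-2, TNFRSF13B rose and LTA fell. TNFRSF13B, a receptor for BAFF and APRIL, had deposited signals of 1401 and 1657 with EtOH, and 951, 1174 and 942 with water. Its levels were 10.45 and 10.46 with EtOH, and 9.80, 9.65 and 9.81 with water, and it rose by 0.70 (SE 0.08, 95% interval 0.53 to 0.86, adjusted p = 0.000211), or 1.62-fold. LTA had signals of 3921 and 3828 with EtOH, and 6110, 8008 and 5728 with water. Its levels were 11.88 and 11.60 with EtOH, and 12.47, 12.26 and 12.38 with water. It fell by 0.63 (SE 0.11, adjusted p = 0.00392), which was 1.54-fold lower with EtOH. With EtOH replicate 2 left out the difference of LTA was -0.49 (adjusted p = 0.0561). Thus 2 of 10 genes were called, where 16.2% of all entries were, and the median differences were 0.19 and 0.05.

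CD70 stood at 11.61 and 11.49 with EtOH in SUDHL-2, and at 11.35, 10.74 and 11.13 with water. The groups did not overlap, and the difference of 0.47 (SE 0.16, adjusted p = 0.0673) passed the threshold only under some settings. These were median centring (0.59, adjusted p = 0.0147), the probes detected on every array (adjusted p = 0.049), the fit without water replicate 1 (0.61, adjusted p = 0.0277) and the fits with the array title number (0.50, adjusted p = 0.0299) or the name number (adjusted p = 0.0368) as a replicate block. TNFRSF13C was above background on both EtOH arrays and on none of the water arrays, with signals of 76.0 and 84.5 with EtOH, and 65.5 to 72.7 with water. Measured from the floor the difference was 0.34 (adjusted p = 0.0835), and it ranged from 0.24 with quantile normalization to 0.69 with normexp. With the title number as a replicate block its adjusted p was 0.0302, with the name number it was 0.0402, and with normexp background correction it was 0.00997. FAS, the death receptor, was also detected on both EtOH arrays and none of the water arrays, with signals of 65.6 and 78.0 with EtOH, and 54.1 to 72.1 with water (adjusted p = 0.183, 0.00234 with normexp). The lowest detected signal was 63.9 and 65.5 on the EtOH arrays, and 71.2 to 74.2 on the water arrays. Detection of TNFRSF13C and FAS with EtOH alone therefore does not by itself show a rise. CD27 (0.31, adjusted p = 0.112), LTB (0.19, adjusted p = 0.341), CD40 (-0.21, adjusted p = 0.2), TNF (-0.15, adjusted p = 0.389) and TNFRSF17 (0.05, adjusted p = 0.809) were not called. The summed B-cell marker signal was 5053 to 5296 with EtOH, and 5326 to 7781 with water. Of its genes CD79A (-0.91), CD79B (-0.63) and CD37 (-0.87) fell and CD22 (0.80) rose, and their part in the results was not tested. The CD37 call was lost with quantile normalization, without the detection filter and without some single arrays. The CD22 call was lost without either EtOH array.

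In SUDHL-4 with EtOH, TNFRSF17, the receptor that marks late B-cell stages and plasma cells, was the gene called. Its levels were 10.23, 10.32 and 10.39 with EtOH, and 9.71, 9.95 and 9.71 with water. The difference was 0.53 (SE 0.09, 95% interval 0.32 to 0.73, adjusted p = 0.0433), or 1.44-fold. It is 1 of 10 genes, where 0.389% of all entries were called. The call was lost under 10 alternatives, among them the title number as a replicate block (adjusted p = 0.0527), and without any single array of the 6 (0.48 to 0.61, adjusted p of 0.0529 to 0.179). CD40 (0.31, adjusted p = 0.148) and TNF (0.21, adjusted p = 0.323) had every EtOH array above every water array and were not called. LTB stood at 10.22, 9.87 and 9.84 with EtOH, and 10.03, 9.93 and 9.87 with water, a difference of 0.03 (95% interval -0.20 to 0.26, adjusted p = 0.89). For CD27 it was 0.11 (95% interval -0.13 to 0.35, adjusted p = 0.666). CD70 (0.21), TNFRSF13C (0.18) and LTA (-0.14) had adjusted p of 0.576, 0.521 and 0.6. The median difference of the 10 genes was 0.15, beside -0.03 over all entries.

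**Figure D4:**
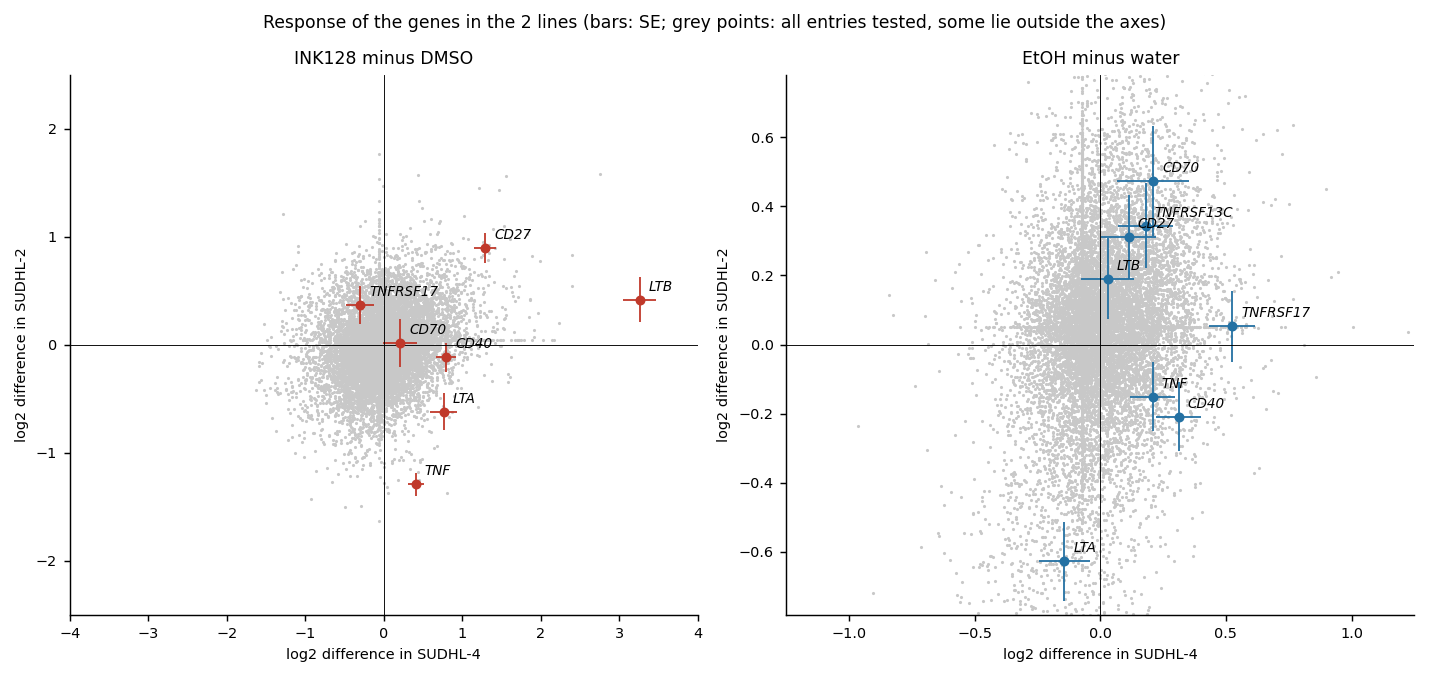
Log2 difference in SUDHL-2 (y axis) against that in SUDHL-4 (x axis) for INK128 minus DMSO (left) and EtOH minus water (right), with bars of 1 SE. Grey points are all entries tested, and genes below background in both groups of a line are left out. LTB lies at 3.26 in SUDHL-4 and 0.42 in SUDHL-2, and TNF lies at 0.41 in SUDHL-4 and -1.29 in SUDHL-2 with INK128.

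The EtOH response differed between the lines for CD40 (SUDHL-2 minus SUDHL-4, -0.52, SE 0.13, adjusted p = 0.0479). That call was lost under 7 alternatives and without 9 of the 11 arrays in turn (-0.56 to -0.39, adjusted p of 0.0599 to 0.187), the exceptions being SUDHL-2 EtOH replicate 2 and SUDHL-4 EtOH replicate 1. TNFRSF13B was called as well (0.77), with SUDHL-4 values that were all below background. Over all entries 5.31% were called. LTA (-0.48, adjusted p = 0.0999), TNFRSF17 (-0.47, adjusted p = 0.0753) and TNF (-0.36, adjusted p = 0.156) were not.

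Set against each other within a line, the EtOH response minus the INK128 response was 1.14 for TNF in SUDHL-2 (SE 0.14, adjusted p = 3.34e-05), which was 1 of 10 genes where 6.2% of all entries were called. The LTA differences in SUDHL-2 were -0.63 with EtOH and -0.62 with INK128 (95% interval of the difference -0.47 to 0.46, adjusted p = 0.996). TNFRSF13B (0.65, adjusted p = 0.0602) and CD27 (-0.58, adjusted p = 0.0778) were not called. In SUDHL-4 the EtOH response was lower than the INK128 response for LTB (-3.23, SE 0.25, adjusted p = 3.13e-07), CD27 (-1.18, SE 0.18, adjusted p = 0.000283), LTA (-0.90, SE 0.21, adjusted p = 0.00843) and TNFRSF13C (-0.79, SE 0.18, adjusted p = 0.00695). It was higher for TNFRSF17 (0.83, SE 0.21, adjusted p = 0.0151). The TNFRSF13C call was lost with median centring (adjusted p = 0.068), and the TNFRSF17 call without the detection filter (adjusted p = 0.0781). These are 5 of 10 genes, where 9.25% of all entries were called. CD40 had -0.48 (adjusted p = 0.059). The exposures lasted 24 h and 48 h and each agent had its own vehicle, so these contrasts do not isolate the agent.

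At baseline the lines carried different sets of these genes. CD27 was far lower in SUDHL-2 in both controls. In DMSO the SUDHL-2 arrays had deposited signals of 110, 76 and 80, against 2273, 2202 and 2099 on the SUDHL-4 arrays. In water the SUDHL-2 arrays had 138, 195 and 131, against 2550, 2088 and 1913 on the SUDHL-4 arrays. CD27 was 28.9-fold lower in SUDHL-2 in DMSO (log2 difference -4.85, SE 0.14, adjusted p = 3.65e-11), where 1 of 3 SUDHL-2 arrays was above background, and 19.7-fold lower in water (-4.30, SE 0.11, adjusted p = 2.78e-11). Its ligand CD70 went the other way. CD70 signals in DMSO were 1381, 1006 and 908 on SUDHL-2 arrays, against 233, 267 and 242 on SUDHL-4 arrays. It was 3.60-fold higher in SUDHL-2 in DMSO (1.85, adjusted p = 1.42e-05) and 11.7-fold higher in water (3.55, adjusted p = 1.51e-09).

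Of the BAFF and APRIL receptors, TNFRSF13B was above background on every SUDHL-2 array and on none of the SUDHL-4 arrays. On the normalised scale it was at least 5.87-fold higher in SUDHL-2 in DMSO and at least 11.1-fold higher in water, measured from the SUDHL-4 floor. The probe passed the detection filter only through SUDHL-2 groups, and its SUDHL-4 values are floors, so no p is given. TNFRSF13C was detected on the SUDHL-4 control arrays and on none of the SUDHL-2 control arrays. Its mean signals were 63.4 in SUDHL-2 and 126 in SUDHL-4 in DMSO, and 69.8 in SUDHL-2 and 118 in SUDHL-4 in water. Measured from the floor it was lower in SUDHL-2 by a log2 difference of -0.72 in DMSO (-1.91 to -0.67 over the alternatives) and -1.15 in water (-1.87 to -0.99 over the alternatives). Its SUDHL-2 control values are all floors, so no p is given. TNFRSF17 was 6.47-fold lower in SUDHL-2 in DMSO (-2.69, adjusted p = 6.34e-08) and 4.65-fold lower in water (-2.22, adjusted p = 1.93e-09). CD40 was 2.58-fold higher in SUDHL-2 in water (1.37, adjusted p = 1.19e-07). In DMSO CD40 differed by 0.39 (adjusted p = 0.021), and there its probes disagreed, at 0.83 (adjusted p = 0.000662) and -0.04 (adjusted p = 0.866). The DMSO call of CD40 was also lost with median centring (adjusted p = 0.0563) and without replicate 1 or 3 of SUDHL-2 or replicate 1 or 2 of SUDHL-4 (0.35 to 0.39, adjusted p of 0.0534 to 0.0791). FAS was detected on all 6 SUDHL-2 arrays of the INK128 experiment and on none of the SUDHL-4 arrays. Its mean signals in DMSO were 104 in SUDHL-2 and 53.7 in SUDHL-4. It was not called in the main fit and was called on the deposited Z-score table. FAS too passed the filter only through SUDHL-2 groups, so no p is given. In water FAS was below background in both lines.

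The 3 neighbours on chromosome 6 did not share a direction between the lines. LTA was 3.86-fold higher in SUDHL-2 in DMSO (1.95, adjusted p = 9.95e-07), and the difference in water was 2.22 (adjusted p = 5.12e-09). LTB was 3.09-fold lower in SUDHL-2 in DMSO (-1.63, adjusted p = 2.97e-05) and 1.82-fold lower in water (-0.87, adjusted p = 2.64e-05). TNF was 1.45-fold lower in DMSO (-0.54, adjusted p = 0.000762) and 1.35-fold lower in water (-0.43, adjusted p = 0.00164). In all, 9 of the 10 genes were called in DMSO, 4 higher and 5 lower in SUDHL-2, where 56.1% of all entries were called. In water 4 were called higher and 6 lower, where 65.9% of all entries were called. FAS is among the 6, but it was below background in both lines, so its call compares array floors and is no measured difference. Its mean signals in water were 62.3 in SUDHL-2 and 40.8 in SUDHL-4. TNFRSF13B, whose SUDHL-4 values are floors, is among the 4 in both controls. TNFRSF13C, whose SUDHL-2 values are floors, is among the genes called lower in both. Control levels themselves differed between the experiments, which have no arrays in common, and no test was made across them. Of 6 B-cell markers tested, 5 were lower in SUDHL-2 in DMSO and MS4A1 was higher (1.04), with a median of -2.67, and in water 4 were lower and 0 higher, with a median of -2.20. Of 6 neighbours of CD27 on chromosome 12, 5 were lower in SUDHL-2 in DMSO, with a median of -1.27, and 4 in water, with a median of -0.84, and TAPBPL was higher in both (0.97 and 1.75). The part of these genes in the results was not tested.

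**Figure D5:**
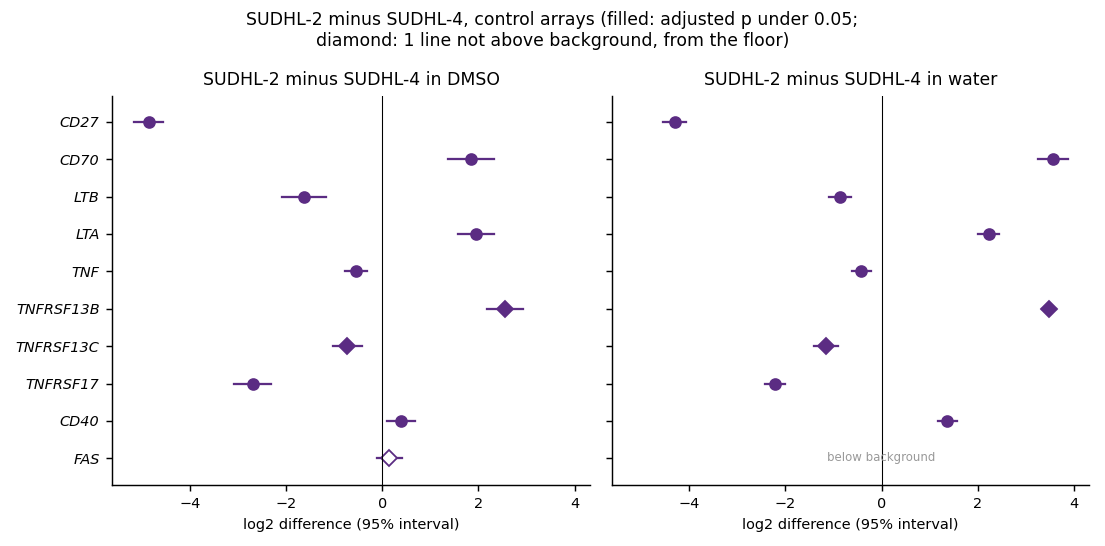
Log2 difference of SUDHL-2 minus SUDHL-4 (x axis) for the 10 genes (rows) on the control arrays in DMSO (left) and water (right), where a line is the 95% interval, a filled mark an adjusted p under 0.05 and a diamond a difference from the floor, with 1 line not above background. CD27 lies at -4.85 and -4.30 and CD70 at 1.85 and 3.55, on opposite sides of 0.

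Ordered by group mean within the INK128 experiment, CD27 had its highest level in SUDHL-4 with INK128 (12.41), then SUDHL-4 with DMSO (11.12), SUDHL-2 with INK128 (7.16) and SUDHL-2 with DMSO (6.27), and no neighbours in this order overlapped. For LTB the order was the same (12.68, 9.43, 8.21 and 7.80), and the SUDHL-2 groups overlapped. LTA ran in another order, from 11.57 in SUDHL-2 with DMSO over 10.95 in SUDHL-2 with INK128 and 10.38 in SUDHL-4 with INK128 down to 9.62 in SUDHL-4 with DMSO, with no overlap of neighbours. The TNF order put SUDHL-4 with INK128 first (9.81), SUDHL-4 with DMSO next (9.40), then SUDHL-2 with DMSO (8.87) and SUDHL-2 with INK128 (7.58), again with no overlap. In the EtOH experiment the groups of SUDHL-4 overlapped for CD27, LTB, LTA, CD70 and TNFRSF13C.

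The genes with levels most like CD27 over the 23 arrays, by Pearson's r, were CYFIP2 (0.99), NCF1C (0.99), CD72 (0.99), PVRIG (0.99) and TPST2 (0.99). Those most like LTB were RFTN1 (0.97), IL4R (0.95), APBB3 (0.95), DCAF12 (0.95) and BCKDHA (0.94). The points share lines, treatments and experiments, and the r values are given as a description. CD72, a B-cell inhibitory receptor, rose by 1.64 with INK128 in SUDHL-4 (adjusted p = 3.99e-05), and IL4R, the interleukin-4 receptor chain, rose by 1.68 (adjusted p = 1.7e-05). RFTN1, a lipid raft protein, rose by 1.13 in the same comparison (adjusted p = 2.96e-05), and TPST2 was not called there (0.30, adjusted p = 0.0763). With EtOH, IL4R rose in SUDHL-2 (0.41, adjusted p = 0.0229, a call lost under some alternatives) and in SUDHL-4 (0.75, adjusted p = 0.0159). The SUDHL-4 call was lost with 1 line alone and with the name number as a replicate block, where 0 of all entries were called. LTB was called with EtOH in neither line.

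Around the 10 genes, other lists of the pathway were counted with INK128 in SUDHL-4. Over all entries 15.4% were called there, 8.27% higher and 7.17% lower, and the list counts are a description beside these shares. Of 6 other TNF family ligands tested, 0 were called, and of 11 other receptors TNFRSF14 (HVEM) alone rose (0.48, adjusted p = 0.0268), a call lost under 4 alternatives and without 4 of the 6 arrays in turn. Among 19 TRAF and ubiquitin adaptors 4 rose and 0 fell. These were TRAF5 (1.22, adjusted p = 0.00153), an adaptor of CD27, CD40 and the lymphotoxin beta receptor, the deubiquitinase CYLD (0.52, adjusted p = 0.0064), TRAF3IP2 (0.76, adjusted p = 0.0248) and MAP3K14 (0.38, adjusted p = 0.0317), the kinase NIK of the alternative NF-kB pathway. Of 12 NF-kB subunits and inhibitors, RELB (0.79, adjusted p = 0.0124) and NFKB1 (0.47, adjusted p = 0.0271) rose and 0 fell. BID (-0.45, adjusted p = 0.0125) and the FAS adaptor FADD (-0.46, adjusted p = 0.0426) fell among 8 death receptor signaling genes. Of these, TRAF5 was called under every alternative and without each array in turn, while the calls of TRAF3IP2, MAP3K14, NFKB1 and FADD were each lost under at least 3 alternatives and without at least 5 of the 6 arrays in turn. CYLD was lost with median centring and at the methods' thresholds, RELB with quantile normalization and without 1 array, and BID at the methods' thresholds and without 2 arrays.

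RHBDF2 (0.80, adjusted p = 0.00207), an iRhom partner of the sheddase that releases TNF, rose among 8 shedding and processing genes. RC3H2 (0.77, adjusted p = 0.00668) and ZFP36L1 (0.75, adjusted p = 0.0395) rose among 9 proteins that bind regulatory elements of cytokine mRNAs, and the ZFP36L1 call was lost under 2 alternatives and without 4 of the 6 arrays in turn. The genes beside LTA, TNF and LTB did not move together, since ATP6V1G2 (1.14, adjusted p = 0.000312) was the one called of 5, and 0 of 6 neighbours of CD27 were called. The medians were 0.10 for the adaptors, 0.16 for the NF-kB genes and -0.06 over all entries. In SUDHL-2 with INK128 TRAF1 fell by 0.61 (adjusted p = 0.0238, lost under 3 alternatives and without 3 of the 6 arrays in turn), and 0 other genes of these pathway and neighbour lists were called. Over all entries 3.62% were called in that comparison. Of the plasma cell markers XBP1, a transcription factor, had -0.59 with INK128 in SUDHL-4 (adjusted p = 0.0478), a call lost under 4 alternatives and without 5 of the 6 arrays in turn.

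With EtOH in SUDHL-2 the NF-kB genes included the single largest change on these lists. Over all entries 16.2% were called in this comparison, 8.94% higher and 7.24% lower. RELA, the p65 subunit, fell by 2.20 (adjusted p = 9.98e-06) and NFKB2 rose by 0.68 (adjusted p = 0.00165), both under every alternative and without each array in turn. NFKBIB had -0.72 (adjusted p = 0.000793), but its probes disagreed, and with only the probes detected on every array it was 0.72 (adjusted p = 0.00288). Of the 19 adaptors TRAF4 (-1.26, adjusted p = 0.00122) and SHARPIN (-0.57, adjusted p = 0.00824) fell, and TAB1 (0.47, adjusted p = 0.0124) and TRAF3 (0.51, adjusted p = 0.0214) were among 3 that rose. TNFRSF25, a death receptor, fell by 1.26 (adjusted p = 0.000516, detected on 1 of 2 EtOH arrays), and TNFRSF1B, a TNF receptor, had -0.23 (adjusted p = 0.0445), a call lost under 10 of 12 alternatives. ADAM10 (-0.65, adjusted p = 0.0266), a sheddase, and PSENEN (-0.75, adjusted p = 0.00637) fell. The calls of TRAF3 and ADAM10 were lost under 4 and 3 alternatives and each without 3 of the 5 arrays in turn. Near LTB, PRRC2A (-1.50, adjusted p = 0.000373) fell and BAG6 (0.43, adjusted p = 0.00936) rose. The BAG6 call was lost with all arrays in 1 fit, at the methods' thresholds and without EtOH replicate 1. DAXX (0.38, adjusted p = 0.0257), a FAS-binding protein, and KHSRP (0.44, adjusted p = 0.0474), an mRNA-binding protein, were each lost under 6 alternatives and without 4 of the 5 arrays in turn. IRF4, a transcription factor of activated B-cells and plasma cells, rose by 0.78 (adjusted p = 0.000833) and was called under every alternative and without each array in turn. NKG7, of the NK-cell list, had -0.31 (adjusted p = 0.0243), a call lost under 4 alternatives and without 2 of the 5 arrays. In SUDHL-4 with EtOH 0 genes of these lists were called, where 0.389% of all entries were.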

How the data were processed

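Polysomal RNA of 23 samples was hybridised by the authors to Illumina HumanHT-12 arrays and read with GenomeStudio 1.9.0. The authors deposited, for each probe, a non-normalised signal intensity and a detection p-value. They also deposited a score table, which matched, within 5e-10, log signals centred and scaled per array to Z-scores. Probe symbols came from the platform annotation (30121 annotated probes, 8 with several symbols). Of 47323 listed probes 92 had no values. The 18136 probes that reached a detection p of at most 0.02 on all arrays of 1 group or more were retained, out of 47231 read (10838 reached it on all arrays).

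The deposited intensity was taken to log2, with signals under the lowest detected signal of an array (59.4 to 91.4) set to it. The values of an array were then centred and divided by their SD over the retained probes, multiplied by the mean SD of 2.03 and shifted to the mean of 8.16. Probes of a symbol were averaged, giving 14636 entries (10546 named genes, and 4090 unnamed probes). The fits used limma (3.58.1) and R 4.3.3, with the package data.table for reading (version 1.17.8). The 12 INK128 arrays and the 11 EtOH arrays were fitted apart, and all 23 for EtOH against INK128. Genes were called at a Benjamini-Hochberg adjusted p under 0.05. The fit was tested on simulated data. Where 1 group had 0 arrays above background the difference is from the floor and depends on the scaling, and where both had 0 no fold is given. The number of arrays limits the precision.

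The members, the pathway and marker lists, and the tests were chosen with earlier results of these data known. All members are named, and of each other list up to 4 called genes with the smallest p per treatment comparison. For CD27 and LTB the 5 genes with the highest r are named as well. To check whether title numbers pair the arrays, the deviation of each array from its group mean was correlated between the treated and the control array of a number. For EtOH the r values were 0.42 and 0.55 (SUDHL-2 arrays) and 0.39, 0.19 and 0.14 (SUDHL-4 arrays), all over 0.1, so these numbers were taken to pair the arrays on the data alone. For INK128 they were 0.47, -0.21 and 0.27 (SUDHL-2 arrays) and -0.31, 0.22 and 0.17 (SUDHL-4 arrays), so the numbers did not pair them. For SUDHL-2 with EtOH the deviations of the 2 EtOH arrays mirror each other, so the r values there are not separate evidence. By name number the r values of the SUDHL-4 EtOH arrays were 0.39, 0.04 and 0.25. The main fits have no block, so the main EtOH tests leave the pairing by title number out. With that number as a block, CD70 and TNFRSF13C in SUDHL-2 with EtOH were called, unlike in the main fit. TNFRSF17 in SUDHL-4 with EtOH, called in the main fit, was then not called. Fits with a block are among the alternatives. Alternatives were quantile normalization, median centring, normexp (offset 16), stricter and no detection filters, the deposited score table, probes kept apart, other sample sets, replicate blocks, trend and robust fits, the methods' thresholds (p under 0.05, false discovery rate at most 0.3 and a Z-ratio beyond 1.5) and each array left out. The plots were made in matplotlib (3.10.9) under Python 3.11.15.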

Additional observations from a re-analysis of the deposited data

Results flagged for a closer look

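The INK128 response differed between the lines, by a test of the difference itself (SUDHL-2 minus SUDHL-4), for LTB (-2.84), LTA (-1.38), TNF (-1.70) and CD40 (-0.91). The EtOH response differed between the lines for CD40 (-0.52). The INK128 call of CD40 was lost with median centring and without some single arrays. Its EtOH call was lost under several alternatives and without most single arrays. The EtOH response minus the INK128 response was called for TNF in SUDHL-2 (1.14), and in SUDHL-4 for LTB (-3.23), CD27 (-1.18), LTA (-0.90), TNFRSF13C (-0.79) and TNFRSF17 (0.83). In SUDHL-4 the TNFRSF13C call was lost with median centring, and the TNFRSF17 call without the detection filter. All values are differences of log2 differences.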

How the results depend on the processing

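Over the alternatives 0 called results of the 10 genes reversed. The count of members called stayed within 1.5 times of its main value under every alternative for INK128 in SUDHL-4 (main 6), the DMSO baseline (9) and EtOH minus INK128 in SUDHL-4 (5). INK128 in SUDHL-2 went from 2 members to 1 with only probes detected on every array, where CD27 is not tested, and to 1 with the line fitted alone (2 to 3 with an array left out). EtOH in SUDHL-2 went from 2 to 4 with normexp and to 4 with the replicate block by title number or by name number, and ranged from 1 to 3 with an array left out. EtOH in SUDHL-4 went from 1 to 0 under median centring, normexp, probes detected on every array, no filter, probes kept apart, all arrays in 1 fit, 1 line alone, both replicate blocks and the trend and robust fit, to 2 at the methods' thresholds, and to 0 with any array left out. The water baseline went from 10, FAS at the floor among them, to 6 at the methods' thresholds. The line difference with INK128 went from 5 to 3 with median centring and ranged from 3 (without SUDHL-2 DMSO replicate 3) to 5 with an array left out. The line difference with EtOH went from 2 to 1 with median centring, no filter, the deposited Z-score table, all arrays in 1 fit, and the trend and robust fit, to 0 with probes detected on every array, and to 4 with the replicate block by name number, and ranged from 1 to 2 with an array left out. EtOH minus INK128 in SUDHL-2 went from 1 to 2 with median centring, normexp, the deposited Z-score table and the methods' thresholds, and ranged from 1 to 3 with an array left out (3 without SUDHL-2 INK128 replicate 2 or 3). NFKBIB with EtOH in SUDHL-2 reversed to 0.72 with only the probes detected on every array. The cause of the other changes was not tested.

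With the replicate block the INK128 counts over all entries were 592 beside 530 in SUDHL-2 and 2477 beside 2260 in SUDHL-4, and LTA in SUDHL-2 was called (adjusted p = 0.0309). Beside the calls given with EtOH, the block by name number also called the line differences of LTA (adjusted p = 0.0392) and TNFRSF17 (adjusted p = 0.0382). The median of all entries in the water baseline was -0.11, beside -0.25 with median centring, -0.0033 with quantile normalization and 0.04 on the deposited Z-score table. The slide could not be used as a block, since the files used here name none. TNFRSF13B and FAS in SUDHL-4, and TNFRSF13C, FAS and CD27 in SUDHL-2, lay at or near the background. There a floor can understate a difference from a group above background. Where both groups are below background, the floors alone can give a difference. For FAS in water it was -0.23 (SUDHL-2 minus SUDHL-4), while the mean signals were 62.3 in SUDHL-2 and 40.8 in SUDHL-4.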
